A study of Mus with 12 samples.

Results

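Genes for 10 transcription factors of the myeloid and erythroid lineages were followed in mouse blood. They were taken by gene name from the deposited table, which held 1 row for each of the 10 among 25247 genes. The granulocyte and monocyte side was represented by Spi1, Cebpb, Cebpd and Cebpe, the factors shared with lymphocytes by Ikzf1 and Klf2, and the erythroid and megakaryocyte side by Gata1, Tal1, Gfi1b and Klf1. Of the 10 genes, 9 were abundant enough to be tested, and Klf1 was not.

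Blood cell types are set up by small groups of transcription factors that switch on lineage genes and hold down those of other lineages. PU.1, the product of Spi1, and the C/EBP proteins drive the genes of neutrophils and monocytes, with C/EBP epsilon acting late, when neutrophil granule proteins are made. GATA1 works with TAL1, KLF1 and GFI1B in red cell precursors and megakaryocytes, and PU.1 and GATA1 are known to antagonise each other. Ikaros, the product of Ikzf1, is a lymphoid and myeloid regulator, and KLF2 keeps T cells quiescent and in circulation. Mature red cells and platelets have no nucleus, so transcripts of these factors in whole blood come from nucleated cells, from young red cells that still hold RNA, or from platelets.

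The samples were 12 libraries of total RNA from blood of female BALB/c mice, 6 weeks old at the start, with 3 libraries in each of 4 groups and blood taken on day 30. Sex, age and day are from the study's methods. Solvent mice received only the vehicle, acetone and olive oil, on the shaved back. DNCB mice were sensitized with 1% 1-chloro-2,4-dinitrobenzene, a contact allergen used to induce dermatitis, and challenged repeatedly with 0.5%. The scMSC mice received the same DNCB course and 2000000 mesenchymal stem cells (MSC) per dose in 100 µL under the skin of the back. In the scivMSC mice the DNCB course was joined by the same number of cells, with 50 µL given under the skin and 50 µL into the tail vein. Human umbilical cord was the source of the cells. All 4 groups share the strain, none of the groups is DNCB with an injection free of cells, and the labels name neither a batch nor a cell count.

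Haemoglobin transcripts filled most of every library. Summed counts ranged from 52179764 to 65139421 per library, and 10 haemoglobin genes held between 91.3% (DNCB replicate 2) and 95.6% (scivMSC replicate 2) of all FPKM, a measure of fragments per length of gene and depth of library. The counts left for other genes ranged from 5843407 in scivMSC replicate 2 to 12858063 in DNCB replicate 2. About 4 counts stood for 1 fragment, and 12 counts, or 3 fragments, were taken as the floor. Replicate 2 of scivMSC was the lowest of the 12 libraries for 6 of the 10 factors. Because a library's total is mostly haemoglobin, calls in each comparison are given on the total-count scale and also with TMM scaling. The total-count scale is that of the FPKM values, and TMM scaling centres libraries on the bulk of their genes. Between these scales the median log2 fold change over all 5527 tested genes moved from -0.63 to 0.06 for scMSC against DNCB and from -1.53 to 0.04 for scivMSC against DNCB. For DNCB against Solvent it stood at 0.06 and -0.09.

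Spi1, the gene of PU.1, was the most abundant of the 10 factors in DNCB blood and was near its Solvent level in scMSC blood. It lies at chr2:91082390-91114366 on the plus strand (coordinates of the table, which match GRCm38). Solvent libraries held 5.49, 4.44 and 3.42 FPKM and DNCB libraries 28.3, 43.5 and 30.1 FPKM. With MSC, Spi1 stood at 5.19, 5.03 and 5.64 FPKM in scMSC and at 2.62, 1.01 and 3.25 FPKM in scivMSC. Every DNCB library was above every other library, and every scivMSC library was below every Solvent library. From Solvent to DNCB the fitted log2 fold change was 2.93 ± 0.389 (SE; edgeR quasi-likelihood test, adjusted p = 6.02e-05, n = 3 and 3), a 7.64-fold ratio of mean FPKM. Relative to DNCB, Spi1 stood at -2.69 ± 0.386 with scMSC (edgeR adjusted p = 0.000188) and at -3.89 ± 0.407 with scivMSC (edgeR adjusted p = 4.47e-06). With TMM scaling these 3 values were 2.77, -1.98 and -2.30, all still called. In RNA from whole blood, fewer cells of a type and less RNA per cell cannot be told apart, here and in every result that follows.

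**Figure D1:**
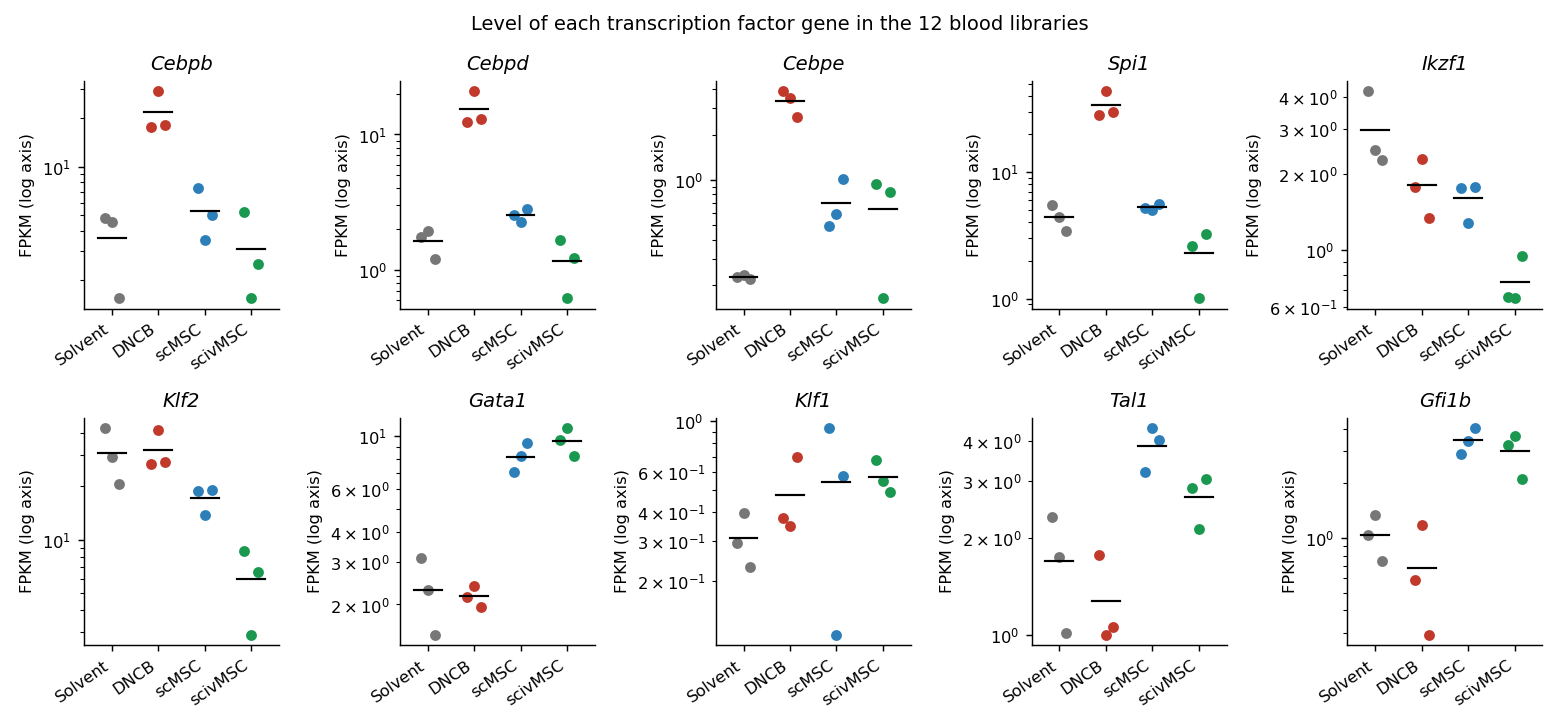
Levels of the 10 transcription factor genes in the 12 libraries, in FPKM on log axes, with 1 panel per gene. Points are libraries and bars are group means. Spi1, Cebpb, Cebpd and Cebpe are highest in the 3 DNCB libraries, and Gata1 and Gfi1b are highest in the 6 libraries of MSC-treated mice.

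The 3 C/EBP genes had their highest levels in DNCB libraries, and all 3 rose against Solvent. C/EBP beta takes part in inflammatory and emergency granulocyte programmes. Cebpb (chr2:167688915-167690418) stood at 4.79, 4.55 and 1.55 FPKM in Solvent and at 17.4, 29.0 and 18.1 FPKM in DNCB. It stood at 7.35, 3.54 and 5.06 FPKM in scMSC and at 5.24, 1.55 and 2.51 FPKM in scivMSC. All DNCB libraries lay above all others, whereas the other 3 groups overlapped. DNCB exceeded Solvent by 2.57 ± 0.502 on the log2 scale (edgeR adjusted p = 0.00148). The fall from DNCB was -2.03 ± 0.492 with scMSC (edgeR adjusted p = 0.00627) and -2.80 ± 0.507 with scivMSC (adjusted p = 0.000192). With TMM scaling these 3 values of Cebpb were 2.43, -1.35 and -1.29, all still called.

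C/EBP delta, an acute-phase factor, was also highest in DNCB libraries. Cebpd (chr16:15887286-15891031) measured 1.74, 1.95 and 1.203 FPKM in Solvent and 12.4, 20.8 and 12.97 FPKM in DNCB. In scMSC it measured 2.54, 2.25 and 2.80 FPKM, and in scivMSC 1.68, 0.620 and 1.22 FPKM. The 3 scMSC libraries were above the 3 Solvent and the 3 scivMSC libraries. Cebpd in DNCB was 3.24 ± 0.392 above Solvent on the log2 scale (edgeR adjusted p = 2.25e-05). Relative to DNCB it was -2.62 ± 0.382 with scMSC (edgeR adjusted p = 0.000215) and -3.72 ± 0.401 with scivMSC (adjusted p = 4.63e-06). With TMM scaling these 3 values of Cebpd were 3.04, -1.90 and -2.15, all still called. Cebpb and Cebpd overlap the genes Tmem189 and Spidr on the opposite strand. The sources used here do not state whether reads were counted by strand, so reads of these partners cannot be told apart.

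Cebpe, the granule-stage factor, was the gene nearest to the floor on the myeloid side. In Solvent, Cebpe (chr14:54710360-54712174, minus strand) measured 0.227, 0.233 and 0.219 FPKM, with 19 counts in each library, and in DNCB 3.87, 3.49 and 2.62 FPKM. In scMSC it measured 0.497, 0.594 and 1.01 FPKM, and in scivMSC 0.942, 0.164 and 0.828 FPKM, where the middle value is 12 counts. Cebpe reached 1 FPKM in the 3 DNCB libraries and in 1 scMSC library, so it entered the tests through the group where it is high and had to differ. The log2 difference between DNCB and Solvent was 3.86 ± 0.629 (edgeR adjusted p = 0.000362). Relative to DNCB, Cebpe stood at -2.25 ± 0.581 with scMSC (edgeR adjusted p = 0.00877) and at -2.35 ± 0.584 with scivMSC (adjusted p = 0.00227). With TMM scaling the scivMSC value was -0.88 (edgeR adjusted p = 0.105), no longer called. Against Solvent, Cebpe stood 1.51 ± 0.592 higher in scivMSC on the log2 scale (edgeR adjusted p = 0.0338), a call lost without any 1 Solvent library (1.49 to 1.53) and without scivMSC replicate 1 (1.13) or 3 (1.29).

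Ikzf1 and Klf2, the factors shared with lymphocytes, were not called in DNCB against Solvent. Ikzf1 (chr11:11685003-11772926) stood at 4.21, 2.47 and 2.25 FPKM in Solvent and at 1.78, 2.27 and 1.34 FPKM in DNCB. It stood at 1.76, 1.28 and 1.77 FPKM in scMSC and at 0.656, 0.649 and 0.947 FPKM in scivMSC. The scivMSC libraries were below all others, and the DNCB and scMSC libraries overlapped. Between DNCB and Solvent its log2 difference was -0.73 ± 0.348 (edgeR adjusted p = 0.157), and with TMM scaling -0.86 ± 0.252 (edgeR adjusted p = 0.0151), past the p threshold but within the 2-fold limit. Relative to DNCB, Ikzf1 stood at -0.18 ± 0.347 with scMSC (edgeR adjusted p = 0.720) and at -1.26 ± 0.353 with scivMSC (adjusted p = 0.00514). With TMM scaling the last value was 0.46 (edgeR adjusted p = 0.142), of the opposite sign.

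Klf2 was the most abundant factor in Solvent blood. Klf2 (chr8:72319033-72321656) stood at 42.7, 29.4 and 20.7 FPKM in Solvent and at 26.8, 41.8 and 27.4 FPKM in DNCB, overlapping ranges. In scMSC it stood at 18.8, 13.8 and 19.1 FPKM, and in scivMSC at 8.68, 2.90 and 6.53 FPKM. The 3 scMSC libraries lay below all Solvent and DNCB libraries, and the 3 scivMSC libraries lay below these. Relative to DNCB, Klf2 stood at -0.90 ± 0.376 on the log2 scale with scMSC (edgeR adjusted p = 0.0833) and at -2.41 ± 0.393 with scivMSC (adjusted p = 7.91e-05). With TMM scaling the latter was -0.87 ± 0.191 (edgeR adjusted p = 0.00187), past the p threshold but within the 2-fold limit.

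Gata1, the central factor of red cell and megakaryocyte precursors, was higher in both MSC groups than in DNCB blood. The 4 myeloid genes were lower in both MSC groups than in DNCB blood. Gata1 (chrX:7959260-7978071, minus strand) measured 3.11, 2.29 and 1.495 FPKM in Solvent and 2.15, 2.39 and 1.95 FPKM in DNCB. In scMSC it measured 7.06, 8.24 and 9.31 FPKM, and in scivMSC 9.64, 10.8 and 8.24 FPKM. The 6 libraries of MSC-treated mice were all above the 6 others, while Solvent and DNCB overlapped. Between DNCB and Solvent its log2 difference was -0.08 ± 0.317 (edgeR adjusted p = 0.891). Against DNCB, Gata1 rose by 1.91 ± 0.327 with scMSC (edgeR adjusted p = 0.000741) and by 2.13 ± 0.329 with scivMSC (adjusted p = 4.84e-05), ratios of mean FPKM of 3.79 and 4.41. These rises were 2.61 and 3.87 with TMM scaling. In scivMSC blood Gata1 had the highest mean of the 10 factors, 9.55 ± 1.27 FPKM (SD, n = 3), beside 2.16 ± 0.221 FPKM in DNCB blood.

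Tal1 and Gfi1b, which act beside GATA1, also rose after both routes of MSC. Tal1 (chr4:115056426-115071755) measured 2.32, 1.75 and 1.02 FPKM in Solvent, 1.77, 1.00 and 1.06 FPKM in DNCB, 3.21, 4.39 and 4.02 FPKM in scMSC, and 2.86, 2.13 and 3.05 FPKM in scivMSC. Gfi1b, a repressor needed for red cells and platelets (chr2:28609450-28621982, minus strand), measured 1.04, 1.33 and 0.747 FPKM in Solvent and 0.585, 1.18 and 0.292 FPKM in DNCB. It measured 2.89, 3.44 and 4.04 FPKM in scMSC and 3.27, 3.67 and 2.12 FPKM in scivMSC. For both genes the MSC-treated libraries lay above every DNCB library. Gfi1b rose against DNCB by 2.29 ± 0.484 with scMSC (edgeR adjusted p = 0.00271) and by 2.10 ± 0.482 with scivMSC (adjusted p = 0.00124). Tal1 rose by 1.58 ± 0.369 with scMSC (edgeR adjusted p = 0.00504) and by 1.06 ± 0.365 with scivMSC (adjusted p = 0.0172). The last of these calls was lost without DNCB replicate 2 (0.91, edgeR adjusted p = 0.067), and also without DNCB replicate 3 (0.94) or scivMSC replicate 3 (0.95). With TMM scaling the rises in scMSC and scivMSC were 3.07 and 3.92 for Gfi1b and 2.27 and 2.69 for Tal1, all called.

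Klf1, the master regulator of globin and red cell membrane genes, was close to undetected. It lies at chr8:84901928-84905295 and measured 0.293, 0.397 and 0.230 FPKM in Solvent and 0.377, 0.347 and 0.698 FPKM in DNCB. In scMSC it measured 0.933, 0.116 and 0.576 FPKM, and in scivMSC 0.674, 0.546 and 0.489 FPKM. These are 12 to 79 counts, or 3 to 19.75 fragments, in libraries that were otherwise mostly haemoglobin. Since Klf1 never reached 1 FPKM it was left out of the tests. In a fit without that filter its log2 fold change was 0.19 ± 0.798 for scMSC and 0.27 ± 0.798 for scivMSC against DNCB, with adjusted p of 1 and 0.949 in edgeR, so no difference was detectable at this depth.

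The first comparison, DNCB blood with vehicle blood, addresses the effect of the allergen. Of the 9 tested factors, Spi1, Cebpb, Cebpd and Cebpe were called higher, where a call needs an adjusted p under 0.05 and a change of more than 2-fold. Cebpe, which had to differ to be tested, is no support in this count or in those that follow. Over all tested genes 15.6% were called higher and 4.87% lower (with TMM scaling 16.1% and 11.5%, and the same 4 factors). The FPKM ranges of the 2 groups did not overlap for 4 factors, all higher, and for 25% (higher) and 16.5% (lower) of all tested genes. No factor was called lower by edgeR, DESeq2 or limma. At an unadjusted p under 0.05, edgeR with total-count scaling placed 0 factors lower, and edgeR with TMM, DESeq2 and limma 1 each. The erythroid genes Gata1, Tal1 and Gfi1b had fitted log2 changes of -0.08, -0.41 and -0.59, with adjusted p between 0.416 and 0.891.

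The comparisons of each MSC route with DNCB address how sensitized mice given MSC differed from those without. They share the 3 DNCB libraries, so their values are not independent of each other or of the comparison above. Without a group given DNCB and an injection free of cells, the cells and the injection cannot be told apart. In scMSC, Gata1, Tal1 and Gfi1b were called higher and Spi1, Cebpb, Cebpd and Cebpe lower. The shares over all tested genes were 1.27% higher and 24.9% lower. With TMM scaling the 7 calls held, and the shares were 8.74% and 12.3%. Ranges did not overlap for 3 factors higher and 5 lower (Klf2 and the 4 called), and for 5.54% and 49.8% of all tested genes. In scivMSC, 3 factors were called higher, the erythroid ones, and 6 were called lower, against 1.43% and 62% of all tested genes. Ranges did not overlap for the same 3 and 6 factors, and for 5.41% and 67.9% of all tested genes. A lower call in scivMSC was thus common to most tested genes. With TMM scaling 3 factors stayed higher (20.6% of all tested genes) and 3 stayed lower, namely Spi1, Cebpb and Cebpd (18.9%).

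**Figure D2:**
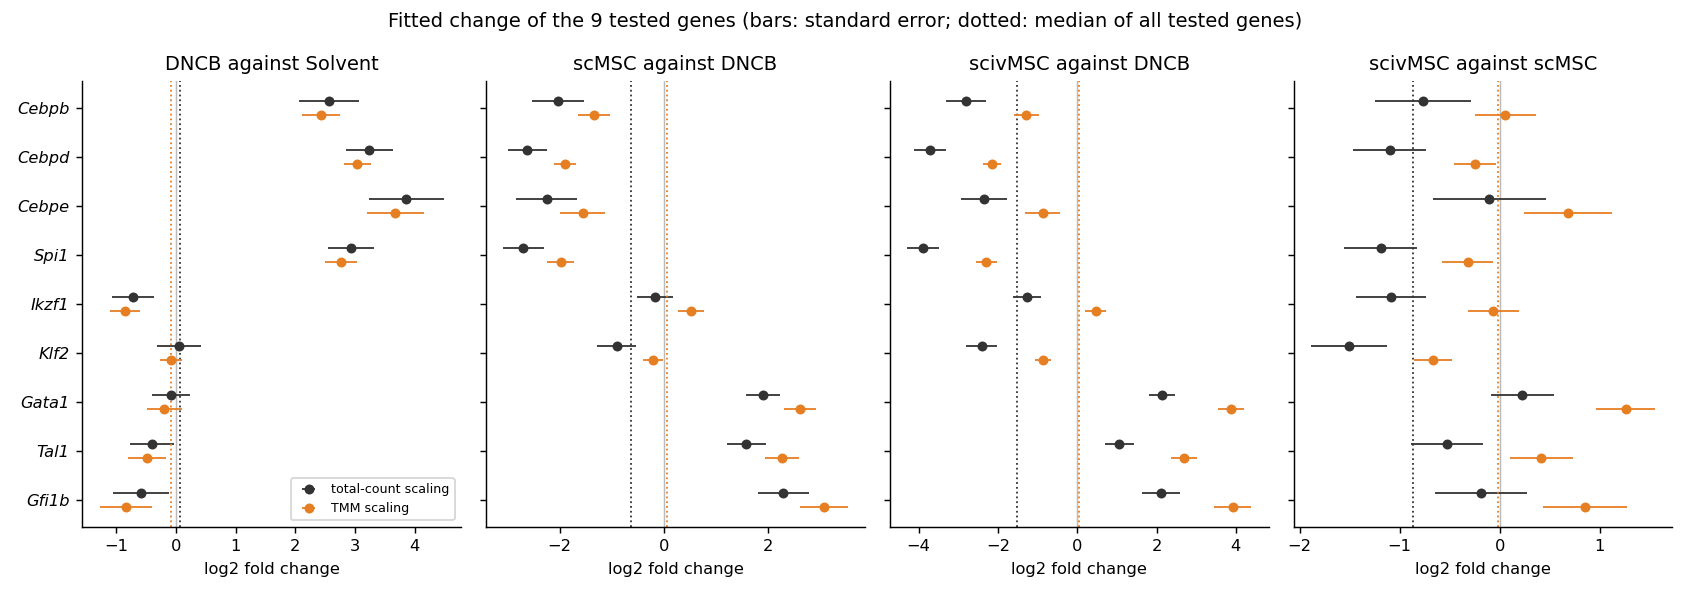
Fitted log2 fold changes of the 9 tested factors in 4 comparisons, with standard errors as bars, for total-count scaling (black) and TMM scaling (orange). Dotted lines mark the median over all tested genes, which lies at -1.53 for scivMSC against DNCB with total counts. Gata1, Tal1 and Gfi1b lie above 0 in both comparisons with DNCB under either scaling.

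The direct comparison of scivMSC with scMSC asks whether the 2 routes differed, and here the choice of scale decided the calls. With total counts edgeR called Cebpd (-1.10 ± 0.366, adjusted p = 0.0336), Spi1 (-1.19 ± 0.369, adjusted p = 0.0262), Ikzf1 (-1.08 ± 0.352, adjusted p = 0.0305) and Klf2 (-1.51 ± 0.382, adjusted p = 0.0138) lower in scivMSC. Over all tested genes 30.4% were called lower and 0.344% higher. Ranges did not overlap for 5 factors lower (Tal1 and the 4 called) and 0 higher, and for 46.7% and 3.82% of all tested genes. No factor was called higher by edgeR on this scale or by limma, and none had an unadjusted p under 0.05 in that direction. With TMM scaling, 0 factors were called lower and Gata1 was called higher (1.26 ± 0.294, edgeR adjusted p = 0.00712), where 13.1% of all tested genes were called higher and 4.92% lower. DESeq2 likewise called 1 higher and 0 lower. Only Klf2 kept its call without scMSC replicate 1 or 3 as well. Without scivMSC replicate 2, the library lowest for 6 factors, only Klf2 of the 4 was called, and Spi1 stood at -0.83 (edgeR adjusted p = 0.0721), Cebpd at -0.790 (adjusted p = 0.106) and Ikzf1 at -0.98 (adjusted p = 0.0760).

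Against Solvent, Gata1 was above its baseline after both routes. It stood 1.82 ± 0.326 above Solvent on the log2 scale with scMSC (edgeR adjusted p = 0.0259) and 2.05 ± 0.328 above with scivMSC (adjusted p = 0.000190). In scMSC it was the 1 factor called, with 0.326% of all tested genes higher and 0.326% lower. Ranges did not overlap for 5 factors higher and 2 lower in scMSC (7% and 40.6% of all tested genes), and for 2 higher and 3 lower in scivMSC (6.1% and 62.6%). This call was lost in 5 of the 12 fits that left out a library (those without Solvent 2 or 3 or any scMSC replicate), with values from 1.59 to 1.92 and edgeR adjusted p from 0.0591 to 0.142. No factor was called lower there by edgeR, DESeq2 or limma, although 2 had an unadjusted p under 0.05 in edgeR. In scivMSC, Cebpe, Gata1 and Gfi1b were called higher and Ikzf1 and Klf2 lower, against 2.59% and 59.2% of all tested genes. With TMM scaling 6 factors were called higher in scMSC (Cebpb, Cebpd, Cebpe, Gata1, Tal1 and Gfi1b, background 7.29%) and 5 in scivMSC (Cebpb, Cebpe, Gata1, Tal1 and Gfi1b, background 22.4%), and 0 lower in either, where 1.21% and 13.4% of all tested genes were. All 9 tested factors differed over the 4 groups in edgeR's F test, as did 72.3% of all tested genes. With TMM scaling 8 of the 9 did, and Ikzf1 had an adjusted p of 0.0501 in edgeR's F test.

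The ratio of Spi1 to Gata1 within a library does not depend on how libraries are scaled. It was 1.77, 1.94 and 2.29 in Solvent and 13.2, 18.2 and 15.4 in DNCB. In scMSC it was 0.735, 0.611 and 0.606, and in scivMSC 0.272, 0.0934 and 0.395. The 4 groups did not overlap, and Spi1 exceeded Gata1 in all Solvent and DNCB libraries and was below it in all 6 libraries of MSC-treated mice. On the log2 scale the group means were 0.99 ± 0.187 in Solvent, 3.95 ± 0.233 in DNCB, -0.63 ± 0.158 in scMSC and -2.21 ± 1.08 in scivMSC (SD, n = 3). With all 369600 assignments of libraries to groups enumerated, the exact permutation p for a difference between the groups was 6.494e-05, the smallest it can give. For any pair of groups the exact two-sided permutation p was 0.1, which is the smallest that 3 against 3 allows.

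**Figure D3:**
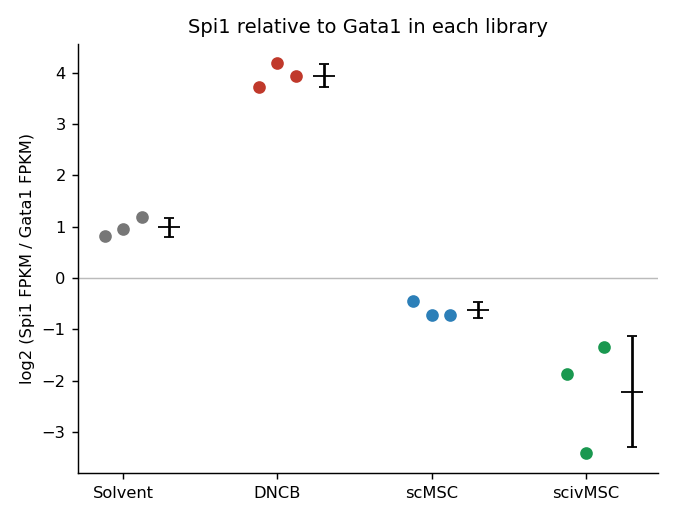
Ratio of Spi1 to Gata1 FPKM in each of the 12 libraries, on a log2 axis, with group means and SD (n = 3) beside the points. DNCB libraries lie between 3.72 and 4.19, and all libraries of MSC-treated mice lie below 0, the lowest being scivMSC replicate 2 at -3.42.

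Genes that these factors are known to control were described by lists chosen from textbook knowledge, with earlier results of these data known. Counts of called list genes, here and in the paragraphs on relatives and markers, are read beside the shares of all tested genes. With total counts DNCB against Solvent gave 15.6% called higher and 4.87% called lower. Against DNCB, 24.9% of all tested genes were called lower with scMSC and 62% with scivMSC, with medians over all tested genes of -0.63 and -1.53. With TMM scaling 12.3% and 18.9% were called lower against DNCB, and 8.74% and 20.6% higher. For scivMSC against scMSC 30.4% were called lower and 0.344% higher with total counts, and 4.92% and 13.1% with TMM scaling. Of the 8 tested targets of Cebpe, mostly neutrophil granule proteins, all 8 were called higher in DNCB against Solvent, with a median log2 fold change of 5.82. Ngp, a granule protein, led with 6.76 ± 0.419 (451.9 FPKM in DNCB and 4.16 FPKM in Solvent, edgeR adjusted p = 4.18e-08). All 8 were called lower in scMSC (median -3.52) and in scivMSC (median -3.37) against DNCB, and 7 of them in scivMSC with TMM scaling. Between scivMSC and scMSC edgeR called 0 of the 8, with 1 at an unadjusted p under 0.05, and limma 0, whereas edgeR with TMM and DESeq2 called 6 higher. Of the 8, the genes Ltf, Camp, Ngp, Mmp8 and Mmp9 are also among the neutrophil markers described further on. Genes named beside a count of 5 or fewer, here and in the next paragraphs, were chosen after their values were seen.

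The 7 tested targets of Spi1, chiefly receptors of the myeloid surface, were all called higher in DNCB against Solvent (median 1.88) and all lower in scivMSC against DNCB (median -3.75). Csf3r, the receptor for G-CSF, was at 22.0 FPKM in Solvent, 197.5 in DNCB, 36.3 in scMSC and 10.5 in scivMSC. Csf3r rose by 3.17 ± 0.407 from Solvent to DNCB (edgeR adjusted p = 4.24e-05) and stood at -4.24 ± 0.428 with scivMSC relative to DNCB (edgeR adjusted p = 4.13e-06). In scMSC against DNCB 6 of the 7 were called lower (median -2.22). In scivMSC against scMSC 4 were lower with total counts, namely Tlr4, Csf1r, Csf3r and Itgam, and 4 with TMM scaling.

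Of the 4 listed targets of Klf2, 2 fell in DNCB blood, where Klf2 itself stood at 0.05 on the log2 scale. These were Ccr7, a homing receptor (-1.76 ± 0.369, edgeR adjusted p = 0.00256), and S1pr1, which lets lymphocytes leave lymphoid organs (-1.72). All 4 were called lower in scivMSC against DNCB with total counts, where 62% of all tested genes were. Their median of -1.23 was closer to 0 than the -1.53 of all tested genes, and with TMM scaling it was 0.32 beside 0.04.

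Of the red cell targets of Gata1 and Klf1, 18 were present and 12 tested. In this list edgeR called 0 in DNCB against Solvent, where 1 had an unadjusted p under 0.05 and DESeq2 and limma also called 0. In scMSC against DNCB their median was -0.03, and the iron carrier Slc25a37 was the only one called (-1.18). In scivMSC against DNCB the median was 0.52 and 1 was called higher, beside 1.43% of all tested genes. With TMM scaling the medians were 0.59 and 2.24. On the TMM scale 0 and 12 of the 12 were called higher, beside 8.74% and 20.6% of all tested genes. The 7 megakaryocyte targets of Gata1 had medians of -0.03 and 0.19 with total counts and 0.69 and 1.93 with TMM scaling. Under TMM scaling 1 and 7 of them were called higher against DNCB, beside the same 8.74% and 20.6% of all tested genes. With total counts Gp1bb, a platelet receptor subunit, was called lower in scMSC (-1.22 ± 0.279, edgeR adjusted p = 0.00439). On that scale edgeR called 0 of the 7 in scivMSC against DNCB, with 1 at an unadjusted p under 0.05, and limma called 0. DESeq2, which scales libraries by its own size factors and not by their totals, called 7 higher. In scivMSC against scMSC edgeR called 3 of the 12 red cell targets higher with total counts and 11 with TMM scaling. Of the 7 megakaryocyte targets it called 0 higher with total counts (2 at an unadjusted p under 0.05) and 5 with TMM scaling. The shares of all tested genes called higher there were 0.344% and 13.1%.

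**Figure D4:**
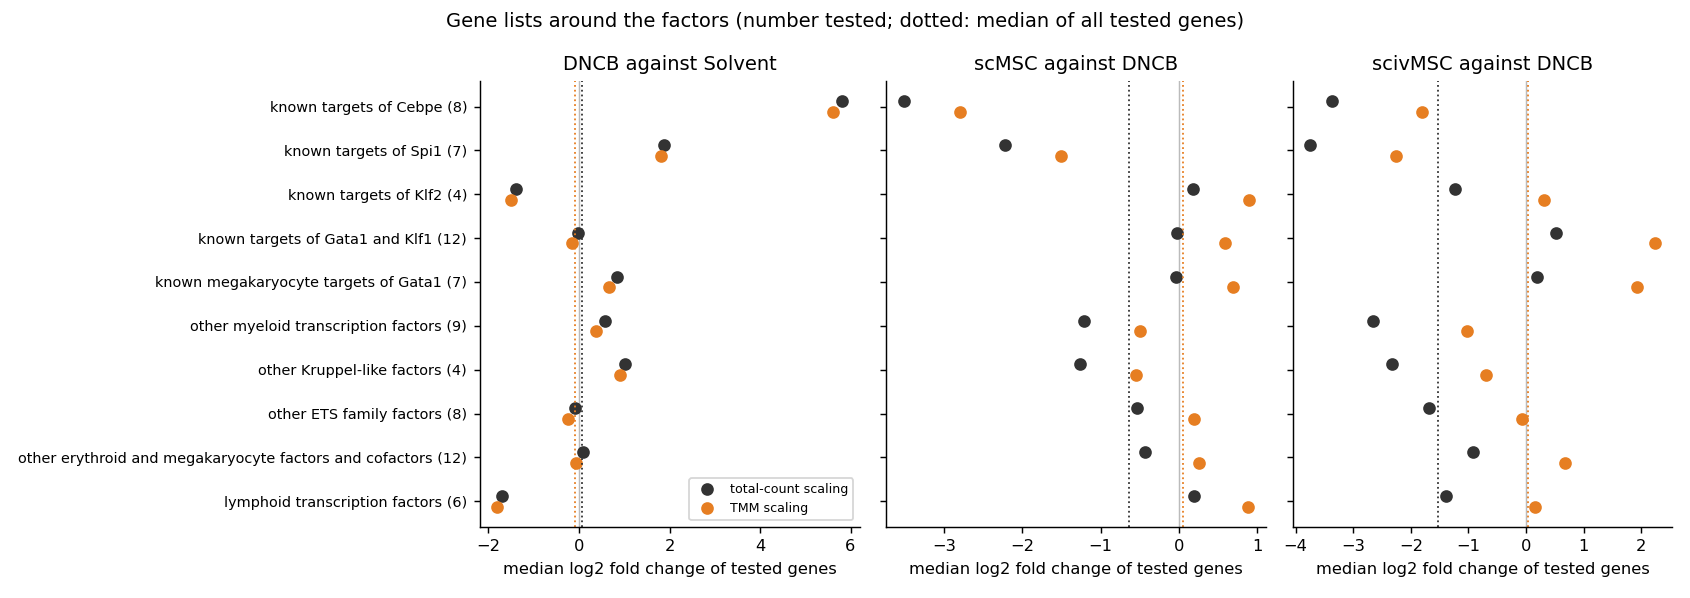
Median log2 fold change of the tested genes in 10 lists around the factors, with the number tested in brackets, for total-count (black) and TMM (orange) scaling. Dotted lines mark the median of all tested genes. Targets of Cebpe and Spi1 lie at 5.82 and 1.88 in DNCB against Solvent and at -3.37 and -3.75 in scivMSC against DNCB with total counts, and targets of Gata1 and Klf1 lie at -0.02 and 0.52.

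Relatives of the 10 factors are given next, with mean FPKM by group. Cebpa, the C/EBP gene of early granulocyte precursors, stood at 1.08 FPKM in Solvent and 2.27 in DNCB and was not called (1.08 ± 0.536, edgeR adjusted p = 0.174). Gata2, the GATA gene of stem cells and mast cells, stood at 0.929 FPKM in DNCB and 1.42 in scivMSC (0.60 ± 0.454, edgeR adjusted p = 0.243), and was called with TMM scaling (2.37). Nfe2, an erythroid and megakaryocyte factor, rose in DNCB against Solvent (1.95 ± 0.481, edgeR adjusted p = 0.00779, from 2.80 to 10.9 FPKM). Lmo2, which bridges TAL1 and GATA1, had -0.17, -0.58 and -0.49 on the log2 scale in DNCB against Solvent and in scMSC and scivMSC against DNCB, none called with total counts. TMM scaling gave -0.38, 0.14 and 1.28, and the last, of the opposite sign, was called higher (edgeR adjusted p = 0.00613).

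Ikzf3, the Ikaros relative of lymphocytes, was the 1 tested gene of the other 4 Ikaros genes and fell in DNCB against Solvent (-1.90 ± 0.465, edgeR adjusted p = 0.00738). These 4 genes together summed to between 1.975 and 3.69 FPKM in Solvent and 0.795 and 1.10 FPKM in DNCB. Ikzf3 thus entered the tests chiefly through libraries where it is high, and its p is no support. Klf3, a repressor of the Krüppel-like family, was called in scivMSC against DNCB (-1.70 ± 0.291, edgeR adjusted p = 0.000122), where TMM scaling gave -0.022. Irf8, a monocyte factor, was at 1.87 FPKM in Solvent, 0.951 in DNCB, 0.435 in scMSC and 0.212 in scivMSC, and was called in scivMSC against DNCB (-2.15 ± 0.479, edgeR adjusted p = 0.000989, and -0.56 with TMM scaling). Like Ikzf3, it entered the tests chiefly through libraries where it is high, so its p is no support. Klf4 and Gfi1, both myeloid factors, were too low to be tested, with means of 0.596 and 0.222 FPKM in DNCB.

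By list, 3 of 9 tested other myeloid factors were called higher in DNCB against Solvent (Bach1 1.77, Klf6 1.44 and Stat3 1.24), with a list median of 0.57. In that comparison 3 of the 9 lay below 0 with total counts. TMM scaling and DESeq2 each called 1 lower there, beside 11.5% of all tested genes with TMM. In scMSC against DNCB 4 of the 9 were called lower (Hif1a, Bach1, Stat3 and Klf6), and 8 in scivMSC, led by Irf5 (-3.10 ± 0.557, edgeR adjusted p = 0.000177). With TMM scaling these counts were 0 (4 at an unadjusted p under 0.05, and 0 called by DESeq2) and 5, with 1 called higher in scivMSC. Of 8 other ETS genes, the family of Spi1, only Spib of B cells was called in DNCB against Solvent and it was lower (-2.34 ± 0.471, edgeR adjusted p = 0.00185). Of these ETS genes 7 were lower in scivMSC against DNCB with total counts (led by Gabpa, -2.66) and 1 with TMM scaling, beside 62% and 18.9% of all tested genes. The ETS list median was -1.68 and, with TMM scaling, -0.08, close to the -1.53 and 0.04 of all tested genes. Of 4 other Krüppel-like genes, Klf10 (1.32) and Klf7 (1.18) were called higher in DNCB, and all 4 were called lower in scivMSC against DNCB (led by Klf13, -2.87), 2 of them with TMM scaling.

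Of 12 tested cofactors of the erythroid and megakaryocyte programme, Nfe2, Mafg and Foxo3 were higher in DNCB, Mafg was lower in scMSC and 5 were lower in scivMSC against DNCB (Zbtb7a, Ldb1, Foxo3, E2f4 and Mafg). With TMM scaling 4 were instead called higher in scivMSC, and 0 lower in edgeR and DESeq2, with 1 at an unadjusted p under 0.05 in each. Of 6 tested lymphoid factors, 5 fell in DNCB against Solvent, led by Pax5 of B cells (-2.48 ± 0.556, edgeR adjusted p = 0.00423), with Lef1, Bcl11b, Foxo1 and Tcf7. In scMSC against DNCB edgeR called 0 of the 6 with total counts, and 0 had an unadjusted p under 0.05. TMM scaling and DESeq2 each called 3 higher there, beside 8.74% of all tested genes with TMM. In scivMSC against DNCB 5 of the 6 lymphoid factors were lower with total counts (led by Tcf3, -2.02), and the list median of -1.39 was close to the -1.53 of all tested genes, 62% of which were called lower. With TMM scaling 0 were called lower by edgeR or by DESeq2, and 0 had an unadjusted p under 0.05 in that direction.

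Neutrophil and monocyte markers were highest in the DNCB libraries, as the 4 myeloid factors were. The 10 neutrophil markers summed to between 221 and 445 FPKM in Solvent, 6995 and 10980 in DNCB, 579 and 721 in scMSC, and 247 and 744 in scivMSC. All 10 were called higher in DNCB and all 10 lower in both MSC groups against DNCB, led by Ngp (6.76) and, in scivMSC, by Retnlg (-4.46). The 8 monocyte markers summed to between 9.75 and 25.4 FPKM in Solvent, 28.4 and 51.2 in DNCB, 13.8 and 14.7 in scMSC, and 9.39 and 10.6 in scivMSC. Of 7 tested, Csf1r and F13a1 were called higher in DNCB, and 5 and 6 were called lower in scMSC and scivMSC against DNCB. With TMM scaling 4 were called lower in each, and 1 was called higher in scivMSC. Both sets were above 0 in every group. The part of neutrophil or monocyte numbers in the levels of Spi1, Cebpb, Cebpd and Cebpe was not tested.

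Markers of red cells and platelets had overlapping ranges of summed FPKM in DNCB and in each MSC group. The 7 erythroid markers in the table summed to between 4026 and 4674 FPKM in Solvent, 4067 and 5063 in DNCB, 4164 and 4701 in scMSC, and 4457 and 5080 in scivMSC, overlapping ranges. Of the 5 tested, edgeR with total counts and limma called 0 against DNCB in either MSC group, with 0 and 2 at an unadjusted p under 0.05 in edgeR, whereas edgeR with TMM and DESeq2 called 5 higher in scivMSC. The erythroid medians against DNCB were 0.12 in scMSC and 0.82 in scivMSC with total counts, beside -0.63 and -1.53 over all tested genes. With TMM scaling they were 0.71 and 2.52, beside 0.06 and 0.04. The 8 platelet markers summed to between 393 and 625 FPKM in Solvent, 611 and 836 in DNCB, 751 and 974 in scMSC, and 775 and 908 in scivMSC. Gp1bb, Gp9 and Treml1 were called higher in DNCB against Solvent, and 1 (Gp1bb) was lower in scMSC against DNCB, where the list median was -0.0099. In scivMSC against DNCB the median was 0.34. With TMM scaling 3 of the 8 were called higher in scMSC (median 0.71) and 8 in scivMSC (median 2.05), against 8.74% and 20.6% of all tested genes. The part of platelets or of young red cells in the Gata1 level was not tested.

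**Figure D5:**
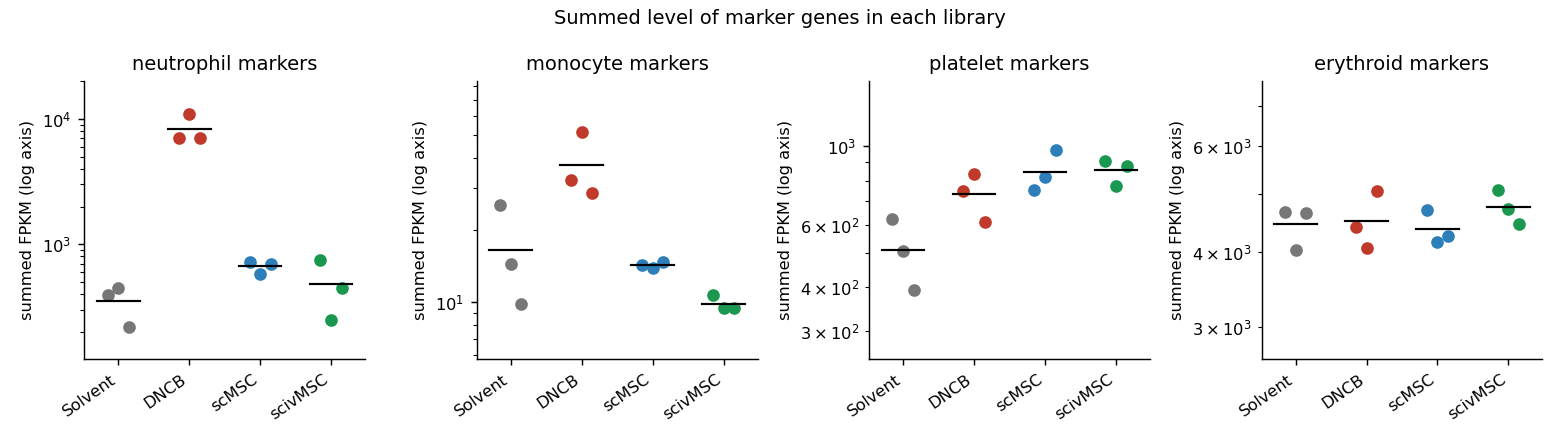
Summed FPKM of marker genes for neutrophils, monocytes, platelets and red cells in each library, on log axes, with group means as bars. Neutrophil markers reach 6995 to 10980 FPKM in DNCB and at most 744 FPKM in any other group, while erythroid markers overlap between all 4 groups.

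The summed T and B cell markers were below every Solvent library in each library of the other groups. The 8 T cell markers summed to between 45.0 and 72.5 FPKM in Solvent, 16.9 and 25.4 in DNCB, 23.8 and 33.1 in scMSC, and 5.72 and 15.7 in scivMSC. Of the 8, 7 were called lower in DNCB against Solvent (led by Cd28, -1.88), and 7 with TMM scaling. In scMSC against DNCB edgeR called 0 with total counts, with 2 higher at an unadjusted p under 0.05. TMM scaling and DESeq2 each called 7 higher there, beside 8.74% of all tested genes with TMM. In scivMSC against DNCB 2 were called lower with total counts, beside 62% of all tested genes, and 0 with TMM scaling (median 0.73). The 8 B cell markers summed to between 77.4 and 226 FPKM in Solvent and 8.66 and 16.2 in scivMSC, and all 8 were called lower in DNCB against Solvent (led by Fcer2a, -2.43). Of 4 tested NK cell markers Gzma and Ncr1 fell in DNCB, and of 3 tested eosinophil and basophil markers Mcpt8 of basophils rose (2.82). The 8 listed eosinophil and basophil markers summed to between 1.56 and 2.55 FPKM in Solvent and 7.13 and 8.10 FPKM in DNCB. Mcpt8 could thus enter the tests through the group where it is high, and its call is no support. The part of lymphocyte numbers in the Ikzf1 and Klf2 levels was not tested.

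The genes whose levels followed a factor most closely over the 12 libraries are given as a description, since all values come from the same libraries and share their haemoglobin load. For Spi1 these were the myeloid kinase Fgr and the surface proteins Cd300lb and Igsf6, each with Pearson r = 0.995 of log2(FPKM + 1). For Cebpe they were Cd63 (0.978), Cd177 (0.974) and Mmp8 (0.973). Fgr, for instance, stood at 3.69 FPKM in Solvent, 26.0 in DNCB, 4.04 in scMSC and 1.36 in scivMSC. Gata1 was followed most closely by Cela1 (0.977), Smtn (0.974) and Pdzk1ip1 (0.970), and Klf1 by Rhd (0.879), Tfrc (0.864) and Slc7a5 (0.763), at lower values.

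Pdzk1ip1, a gene close to Gata1 in pattern, is also the next gene after Tal1 on the plus strand of chromosome 4. It starts 16953 bases past the end of Tal1, with 0 genes of the table between them. Pdzk1ip1 (chr4:115088708-115093899) measured 3.32, 4.04 and 3.46 FPKM in DNCB and 6.96, 10.5 and 10.7 FPKM in scMSC. In scivMSC it measured 7.96, 9.80 and 8.46 FPKM, and none of these ranges overlapped that of DNCB. Because it was picked for its likeness to Gata1 in these libraries, its levels are a description with no test. The fitted log2 differences of Pdzk1ip1 from DNCB were 1.36 ± 0.328 with scMSC and 1.27 ± 0.327 with scivMSC, beside 1.58 and 1.06 for Tal1. For Smtn, an actin-binding protein picked the same way, they were 1.51 and 1.78, and for Cela1, an elastase, 1.58 and 1.59.

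The order of the factors differed between groups. In Solvent blood the order by mean FPKM began with Klf2 (30.9), Spi1 (4.45), Cebpb (3.63) and Ikzf1 (2.98), and in DNCB blood with Spi1 (34.0), Klf2 (32.0), Cebpb (21.5) and Cebpd (15.4). Spi1 was slightly above Klf2 in each DNCB library, at 28.3 and 26.8, 43.5 and 41.8, and 30.1 and 27.4 FPKM. The difference between these 2 genes was not tested. In scMSC blood the order was Klf2 (17.3), Gata1 (8.20), Cebpb (5.32) and Spi1 (5.29), where the last 2 overlapped. In scivMSC blood it was Gata1 (9.55), Klf2 (6.04), Cebpb (3.10) and Gfi1b (3.02). Gata1 was above Klf2 in each scivMSC library, at 9.64 and 8.68, 10.8 and 2.90, and 8.24 and 6.53 FPKM. Klf1 was the lowest in DNCB, scMSC and scivMSC, and Cebpe in Solvent.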

How the data were processed

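Total RNA from mouse blood was sequenced in 12 libraries, 3 per group. The authors deposited 1 table of 25247 genes that holds an estimated count per gene and library. The deposited FPKM values divide these by gene length and library total. The submitters' processing notes name Bowtie 0.12.2, HISAT2 2.0 and StringTie 1.3.0, and the genome build mm8. However, 21402 of 21414 comparable genes (99.9%) overlap GRCm38 RefSeq coordinates by symbol, so coordinates are given as GRCm38. Strand settings are not given in the sources used here. Of values from 1 to 12, 29.0% equal 4, which is why about 4 counts were read as 1 fragment.

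Tested were the 5527 genes that reached 1 FPKM in 3 or more libraries, with edgeR 4.0.16 (quasi-likelihood, R 4.3.3) on the counts, scaled by library totals. All libraries entered 1 fit with 4 group means and 6 contrasts, with Benjamini-Hochberg adjustment over all tested genes. Calls need an adjusted p under 0.05 and a fold over 2. Alternatives were TMM, DESeq2 1.42.0, limma 3.58.1 on log2(FPKM + 1) and log2(FPKM + 0.1), other filters, haemoglobin left out, counts divided by 4, a replicate block, fits of 2 groups, and each library left out. DESeq2 scaled libraries by its own size factors and not by their totals. The tests were run on simulated counts in which all groups shared the same mean profile, apart from genes changed on purpose in DNCB. That simulation held no shift of haemoglobin load, so it cannot say which scale fits these data. No 2 libraries held identical values, and the labels do not say whether libraries are from separate animals, so p-values measure the spread between samples. The floor covers counting error only. Each ± SE comes from the same edgeR fit as its p-value and includes the spread between samples. Each SD is the spread over the libraries of a group.

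The 10 factors and all gene lists were chosen with earlier results of these data known. From each list the called gene with the largest change in DNCB against Solvent and in scivMSC against DNCB was named, with relatives of the factors, and for Spi1, Cebpe, Gata1 and Klf1 the 3 most correlated genes. Replicate numbers do not pair libraries: same-numbered libraries had correlations of their deviations from -0.286 to 0.156. Promoter motifs were not analysed here. A few single-gene results that the naming rule would include are not reported here.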

Additional observations from a re-analysis of the deposited data

Results flagged for a closer look

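Differences in 4 factors were found between the 2 routes of MSC in the fit over all groups, which is the test of whether the changes against DNCB were unequal. The log2 fold change of scivMSC against scMSC was -1.10 for Cebpd, -1.19 for Spi1, -1.08 for Ikzf1 and -1.51 for Klf2. All 4 calls were lost with TMM scaling and with DESeq2. TMM scaling gave -0.25, -0.32, -0.062 and -0.66 in that order, and Klf2 kept an edgeR adjusted p of 0.0187 within the 2-fold limit. In a fit of the 2 groups alone the values stayed at -1.10, -1.19, -1.08 and -1.51, with edgeR adjusted p from 0.0518 (Klf2) to 0.0864 (Cebpd). The median over all tested genes was -0.87 on the same scale. The share of lower calls over all tested genes was 30.4%. The part of the haemoglobin load, which was 94.2% ± 0.377 of FPKM in scMSC and 94.9% ± 0.854 in scivMSC (SD, n = 3), was not tested beyond leaving haemoglobin out, which gave -1.02 for Spi1 and -1.35 for Klf2, both still called. Cebpd (-0.95, edgeR adjusted p = 0.0164) and Ikzf1 (-0.86, edgeR adjusted p = 0.0156) then passed the p threshold but not the 2-fold limit.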

How the results depend on the processing

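Counts of called factors in DNCB against Solvent (4 higher, 0 lower) and the 4 lower in scMSC against DNCB stood under every alternative and left-out library but one setting: a mean FPKM of at least 5, which drops Cebpe from the tests, gave 3 and 3. TMM and DESeq2 moved the following counts alike: 3 rather than 6 lower in scivMSC against DNCB, 1 higher and 0 lower in scivMSC against scMSC, 6 higher in scMSC against Solvent, and 5 higher and 0 lower in scivMSC against Solvent. The test over the 4 groups was passed by 8 of 9 factors with TMM and by 9 with DESeq2. The lower count of scivMSC against scMSC was 2 without haemoglobin, with limma on log2(FPKM + 1), without a filter and with a mean FPKM of at least 5, 0 in the fit of 2 groups, and 1 to 4 with a library left out (1 without scMSC 1, scMSC 3 or scivMSC 2, and 2 without scivMSC 3). The higher count of scMSC against Solvent was 4 without haemoglobin, 2 with limma, 3 in the fit of 2 groups, and 0 to 4 with a library left out (0 without Solvent 2, Solvent 3 or any scMSC library, 3 without scivMSC 1, 4 without scivMSC 2). The higher count of scivMSC against Solvent was 1 with limma. A mean FPKM of at least 5 kept 5 factors, all 5 passing the F test, and left 1 higher for either MSC route relative to DNCB, and for scivMSC relative to Solvent 1 higher and 1 lower. The cause of these shifts was not tested, except that the last setting tests fewer genes.

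Signs turned with TMM, and to near-equal values with DESeq2, in scivMSC against Solvent for Cebpb (1.14 and 1.16), Cebpd (0.89 and 0.91) and Spi1 (0.47 and 0.49), and in scivMSC against scMSC for Cebpb (0.058 and 0.081), Cebpe (0.68 and 0.71), Tal1 (0.42 and 0.46) and Gfi1b (0.85 and 0.91). They also turned for Ikzf1 in scMSC (0.52 and 0.48) and scivMSC (0.46 and 0.46) against DNCB, and for Klf2 in DNCB against Solvent (-0.083 and -0.048). Leaving haemoglobin out turned Cebpb in scivMSC against Solvent (0.11), Cebpe (0.037) and Gfi1b (0.020) in scivMSC against scMSC, Ikzf1 in scMSC against DNCB (0.21) and Klf2 in DNCB against Solvent (-0.11). Left-out libraries turned Cebpb in scivMSC against Solvent (range -0.85 to 0.095, above 0 without Solvent 1 or scivMSC 2), Cebpe in scivMSC against scMSC (-0.48 to 0.35, above 0 without scMSC 3 or scivMSC 2), Ikzf1 in scMSC against DNCB (-0.35 to 0.030, above 0 without DNCB 2), Klf2 (-0.19 to 0.36, below 0 without Solvent 3 or DNCB 2) and Gata1 (-0.32 to 0.20, above 0 without Solvent 1) in DNCB against Solvent, and Gfi1b in scivMSC against scMSC (-0.34 to 0.0088, above 0 without scivMSC 3). Of the total-count values whose sign turned, Ikzf1 in scivMSC against DNCB was the only one called.

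With the replicate number as a block, 1 call of a factor was lost, Cebpe in scivMSC against Solvent (1.39, edgeR adjusted p = 0.0564), and no other. In 5 of 12 libraries the highest correlation was with a library of the same number. The exact permutation p of the Spi1 to Gata1 ratio was 0.001736 with permutations within replicate numbers, and between 6.494e-05 and 0.0001299 with a library left out. Depth limits Klf1 and Cebpe most, at 3 fragments in their lowest libraries.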
